A study of Mus musculus with 2 samples.

Results

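The collagens are the genes that encode the collagen chains of the extracellular matrix. 36 collagen genes were taken by symbol from the 28001 genes counted in each of 2 single-cell RNA libraries of mouse skeletal muscle, and all 36 were found in both. A further 8 collagen genes are present in the count tables and were not among the members.

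A collagen molecule is a triple helix of 3 chains, and its name gives the type and the chain, so that Col4a1 and Col4a2 encode chains of type IV. The fibrillar types I, III and V build the cable-like fibrils that give tendon and the sheaths of muscle their strength, type IV forms the sheet-like network of basement membranes around myofibres, vessels and nerves, and type VI forms beaded filaments in the space between them. The fibril-associated types coat the fibril surface, and types XV and XVIII are proteoglycans that sit at basement membranes. Because chains must meet inside the cell to form a helix, the make-up of the chains expressed by a cell type bounds which collagens it can secrete.

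Both libraries came from C57BL/6J mice of the genotype Hic1CreERT2/CreERT2;Rosa26LSLtdTomato/tdTomato, in which tamoxifen (TAM) turns on the red reporter tdTomato in cells that express Hic1 at that time and in their progeny. In the E10-P56 library, pregnant dams received 1 oral dose of 7.5 mg TAM at embryonic day 10. In the adult pulse library, adult mice received 5 daily injections of 2.5 mg TAM at 8 weeks of age. Skeletal muscle was collected at postnatal day 56 according to the labels, although the study's methods place the adult collection later than its labelling. The muscle was digested with collagenase and dispase, tdTomato+ cells were sorted and their 3′ transcript ends were counted as unique molecular identifiers (UMIs), each UMI standing for 1 captured RNA molecule whatever the length of the transcript. CreERT2 was driven from the Hic1 locus, and the Cre-dependent reporter lay at Rosa26. The libraries therefore sample cells of the Hic1 lineage and not all cells of muscle. The study's methods describe muscles pooled from the hindlimbs rather than separate animals.

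There was 1 library per group. No test between groups is therefore possible, no p-value is given, and every interval below is a 95% interval for counting error only. Labelling time, TAM dose and route, age at collection as the study's methods give it, library and Cell Ranger version differed together between the 2 libraries and cannot be told apart.

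Of 8236 barcodes in the E10-P56 library, with 67460919 UMIs in total, 6087 were kept as cells. Of 9195 in the adult pulse library, with 69153173 UMIs, 8567 were kept. The median depth of a kept cell was 7648 and 7344 UMIs, respectively. The libraries shared 15 barcodes, 11 of them among kept cells, and leaving those out moved no count of collagens given below by over 1.5 times. Levels are given as CPM, the UMIs of a gene in 1000000 UMIs of all cells of a class, with the E10-P56 library first and the adult pulse library second unless a library is named.

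Cells were assigned to classes by marker lists that held no collagen, so that no collagen level was used to define a class. Fibroblast-like cells numbered 4320 and 7175, tenocyte-like cells 209 and 510, and pericyte-like cells 409 and 371. Smooth muscle-like cells numbered 181 and 19, perineurial-like cells 153 and 40, and mural cells between the pericyte and smooth muscle gates (intermediate mural cells) 268 and 131. The tenocyte list summed to 28688 and 21571 CPM in tenocyte-like cells against 155 and 310.1 CPM in fibroblast-like cells, while Atp13a5 of the pericyte list was at 0 in every class of both libraries. The smooth muscle-like and perineurial-like classes of the adult pulse library rest on 19 and 40 cells, and their values carry wide intervals. In the mural cells the gates cut a continuous range, and 101 of 858 cells of the E10-P56 library and 56 of 521 cells of the adult pulse library lay within 0.25 score units of the pericyte boundary.

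Schwann-like cells (140 and 21) and endothelial-like cells (13 and 51) were also present in the sorted fraction, and their levels are given for comparison. Neither is a main source of type I collagen in textbook accounts. Col1a1 nonetheless stood at 1199 and 1408 CPM in Schwann-like cells and at 432 and 1306 CPM in endothelial-like cells. Col3a1 stood at 1079 and 1433 CPM in Schwann-like cells and at 1194 and 2431 CPM in endothelial-like cells. The fibroblast marker list summed to 10463 and 22210 CPM in Schwann-like cells and to 5945 and 14611.5 CPM in endothelial-like cells. In pericyte-like cells it summed to 1802 and 1858 CPM. The 36 members took 0.902% of the summed UMIs of adult pulse endothelial-like cells, but 0.366% in their median cell. Neither the Schwann-like nor the endothelial-like level is therefore read as a background that all classes share. The part of free RNA in any class was not tested.

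Collagen transcripts made up a large part of the RNA of fibroblast-like and tenocyte-like cells and a small part of that of mural and perineurial-like cells. The 36 members took 4.91% and 2.71% of all UMIs in fibroblast-like cells and 4.48% and 4.12% in tenocyte-like cells. They took 1.13% and 0.698% in pericyte-like cells, 0.871% and 0.460% in smooth muscle-like cells, and 0.893% and 0.729% in perineurial-like cells. The share was lower than in fibroblast-like cells in these 3 classes and in the intermediate mural cells, which held 2.32% and 0.770%, in both libraries. Schwann-like cells held 0.591% and 0.757%. The shares of the mural and perineurial-like classes depended on how their cells were chosen. The pericyte share was 1.61% in the E10-P56 library with the gates applied to thinned cells. In the adult pulse library it was 1.02% with Leiden clusters. With Leiden clusters the perineurial share of the E10-P56 library was 1.36%, and with 1 more marker that of the adult pulse library was 0.480%. In the adult pulse library the smooth muscle share was 0.289% with the mural boundaries 0.25 wider, and the intermediate mural share was 1.38% with the gates applied to thinned cells. The share varied widely from cell to cell, the lowest and highest deciles of fibroblast-like cells being bounded by 1.22% and 8.47% in the E10-P56 library and 0.915% and 4.90% in the adult pulse library. With every cell thinned to 1500 UMIs the fibroblast share of the E10-P56 library was 4.24% and the tenocyte share 4.72%. The order of these 2 classes in that library thus depended on the weight of deep cells. Their median cells held 3.16% and 4.19%, respectively.

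**Figure D1:**
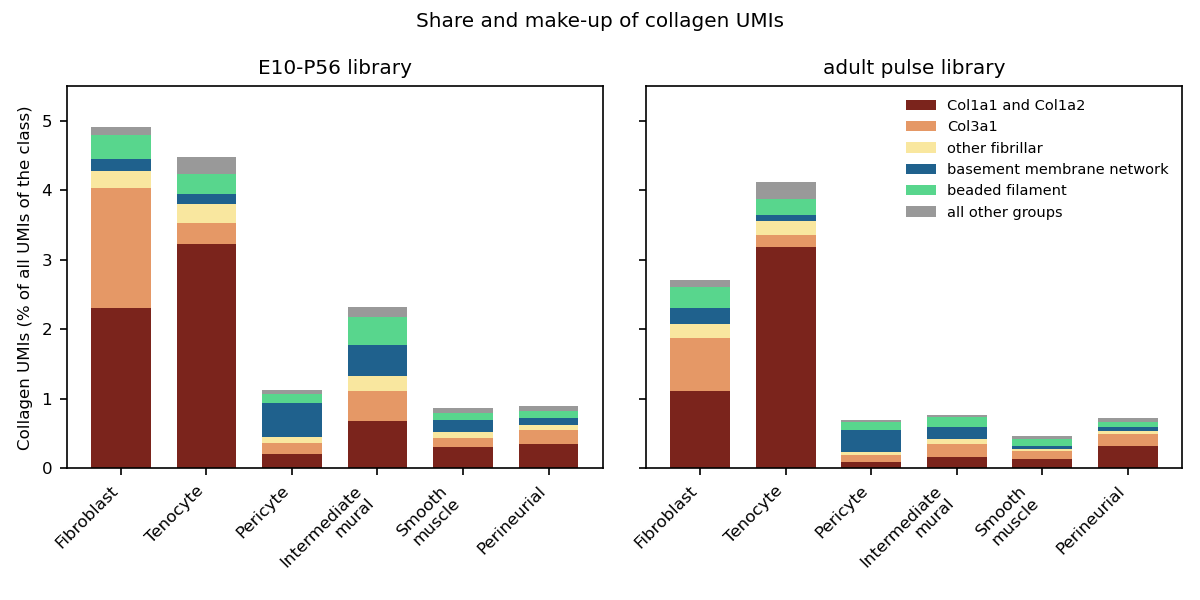
Stacked bars give the share of all UMIs (% on the y axis, from 0) taken by groups of collagen chains in 6 cell classes of the E10-P56 library (left) and the adult pulse library (right). Fibroblast-like and tenocyte-like cells reach 2.71% to 4.91%, type I chains fill most of the tenocyte bars, and type IV chains (basement membrane network) fill the largest part of the pericyte bars.

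The make-up of this RNA differed by class. In tenocyte-like cells Col1a1 and Col1a2, the chains of type I collagen, took 71.9% and 77.3% of the collagen UMIs, and Col3a1 took 6.69% and 4.17%. In fibroblast-like cells type I took 46.9% and 40.8%, and Col3a1, whose chain forms type III collagen, took 35.3% and 28.4%. In pericyte-like cells the 6 chains of type IV took 42.5% and 44.97%, against 3.52% and 8.05% in fibroblast-like cells. The type VI chains, which form beaded filaments, took 7.14% and 11.4% in fibroblast-like cells and 11.97% and 15.2% in pericyte-like cells.

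The fibroblast-like, tenocyte-like, pericyte-like, smooth muscle-like, perineurial-like and intermediate mural classes were ranked by level. Schwann-like and endothelial-like cells were left out of this ranking, and some members, among them Col24a1, stood higher in Schwann-like cells, as given below. Among the ranked classes, the same class held the highest level in both libraries for 27 of the 36 members. The tenocyte-like class was highest for 12 of them, the fibroblast-like class for 10, the pericyte-like class for Col4a1 and Col4a2, the perineurial-like class for Col4a4 and Col23a1, and the smooth muscle-like class for Col4a6. The interval of the highest class lay apart from that of the next class in both libraries for 11 of the 12 tenocyte genes and for 8 of the 10 fibroblast genes, but for neither perineurial gene and for 1 of the 2 pericyte genes. Among the 10 fibroblast genes is Col9a1, which had 1 UMI in the fibroblast-like cells of each library and is not a fibroblast gene by any level that could be measured.

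**Figure D2:**
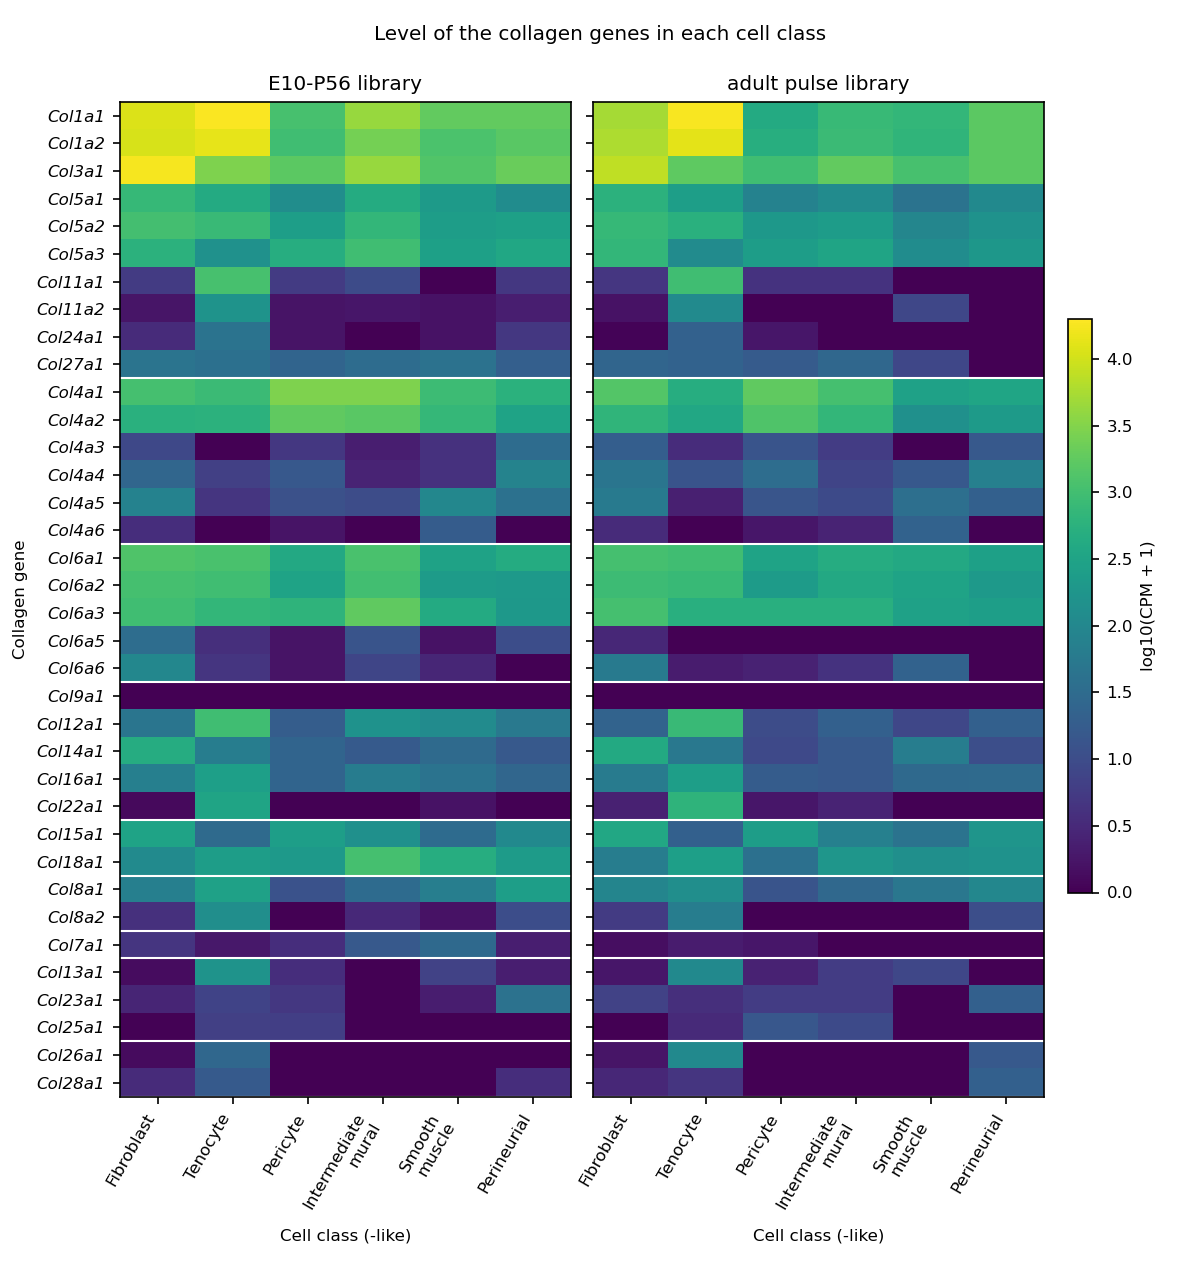
Each cell of the grid gives the level of a collagen gene (rows, grouped by kind of collagen, white lines between groups) in a cell class (columns) as log10(CPM + 1), in the E10-P56 library (left) and the adult pulse library (right). Col1a1 and Col1a2 are brightest in tenocyte-like and Col3a1 in fibroblast-like cells, Col11a1, Col12a1 and Col22a1 stand out in tenocyte-like cells, and Col4a1 and Col4a2 are brightest in pericyte-like cells of both libraries.

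A member was called higher or lower between 2 classes where its CPM differed by at least 2-fold in the same direction in both libraries and its mean over the classes reached 5 CPM. This filter left 32 members in the E10-P56 library, 30 in the adult pulse library and 29 in both. Col24a1, Col25a1, Col28a1, Col4a6, Col6a5, Col7a1 and Col9a1 did not pass in both. A member that passes only through the class where it is high had to differ, so the counts describe the members and support nothing by themselves.

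Tenocyte-like cells differed from fibroblast-like cells in 17 of 29 members. 9 were higher (Col11a1, Col11a2, Col12a1, Col13a1, Col16a1, Col18a1, Col22a1, Col26a1 and Col8a2), where 5.59% of all genes tested were higher. 8 were lower (Col14a1, Col15a1, Col3a1, Col4a3, Col4a4, Col4a5, Col5a3 and Col6a6), where 6.89% of all genes tested were lower. The median log2 ratio of the members was -0.16 and -0.20, beside 0.09 and -0.09 for all genes tested, so that the collagens did not shift as a body.

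Col11a1 and Col11a2 encode chains of type XI collagen, a minor fibrillar collagen that is built into fibrils with type I or type II and is best known from cartilage. The 250 bases upstream of their RefSeq starts are shown because both genes were among those with the largest tenocyte ratios. The GENCODE annotation places the start of Col11a2 further downstream, at chr17:34039437, so the window does not reach that start. Capitals mark matches, on either strand, to the TATA box with the letters TATAAA, the CCAAT box with the letters of its name, and the GC box with the letters GGGCGG. The sequences are from RefSeq, build GRCm38.p6, each on the strand of its gene.

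Col11a1, chr3:114030290-114030539, plus strand: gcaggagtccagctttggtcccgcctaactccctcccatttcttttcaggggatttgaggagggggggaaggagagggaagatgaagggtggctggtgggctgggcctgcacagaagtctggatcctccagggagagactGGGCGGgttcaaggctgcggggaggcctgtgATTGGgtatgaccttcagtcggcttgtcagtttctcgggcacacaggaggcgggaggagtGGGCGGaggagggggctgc

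Col11a2, chr17:34038888-34039137, plus strand: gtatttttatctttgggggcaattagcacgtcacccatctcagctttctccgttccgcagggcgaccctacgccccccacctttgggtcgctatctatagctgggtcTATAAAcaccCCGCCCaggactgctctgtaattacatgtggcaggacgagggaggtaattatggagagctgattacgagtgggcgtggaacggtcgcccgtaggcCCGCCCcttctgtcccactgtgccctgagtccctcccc

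Both windows held GC box matches, the Col11a1 window also a CCAAT match and the Col11a2 window a TATA match. Their GC content was 62.4% and 57.6%. Such matches are common: over all 32851 windows of this length, 32.7% held a GC box match, 33.8% a CCAAT match and 12.4% a TATA match, and over the 32 windows of the 29 members that had a window the shares were 62.5%, 34.4% and 9.38%. An E-box (CANNTG, the letters bound by tenocyte factor Scx among many others) was in 66.2% of all windows and 50% of the member windows. The Col11a2 window held an E-box match and the Col11a1 window held none.

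Col11a1 stood at 1117 and 969 CPM in tenocyte-like cells and at 4.50 and 3.85 CPM in fibroblast-like cells, a 248-fold (214 to 288) and a 252-fold (220.2 to 289) difference. Col11a2 stood at 159 and 113 CPM against 0.719 and 0.639 CPM, a 221-fold and a 177-fold difference. The values of the 2 libraries lay close together for both genes. In cells thinned to 1500 UMIs, 70.3% and 70.4% of the tenocyte-like cells held a Col11a1 UMI, against 0.903% and 0.390% of the fibroblast-like cells.

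Col22a1 encodes a fibril-associated collagen known from the junction of tendon and muscle. It stood at 321 and 637 CPM in tenocyte-like cells and at 0.296 and 1.46 CPM in fibroblast-like cells, differences of 1084-fold (637 to 2003) and 435-fold (351 to 546). These rest on 14 and 87 UMIs in fibroblast-like cells. No other class held more than 1 Col22a1 UMI in either library, the endothelial-like cells and the perineurial-like cells holding 0. The tenocyte ratio was the largest of any member in both libraries.

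Only some tenocyte-like cells held Col22a1. In thinned cells 47 of 209 and 183 of 510 had at least 1 UMI, or 22.5% and 35.9%, and without thinning the shares were 35.4% and 56.3%. In the E10-P56 library Col26a1 stood at 79.9 CPM in the tenocyte-like cells with a Col22a1 UMI and at 10.7 CPM in those without, and in the adult pulse library at 178 and 59.0 CPM. Without thinning, all 29 Col26a1 UMIs of the tenocyte-like cells of the E10-P56 library lay in cells with a Col22a1 UMI. Col8a2, a short-chain network collagen, went the other way, at 71.9 CPM with and 151 CPM without in the E10-P56 library and at 29.7 and 90.2 CPM in the adult pulse library. Col12a1 stood at 979 and 946 CPM in the E10-P56 library and 893 and 752 CPM in the adult pulse library. Col11a1 and Col13a1 were also higher in the cells with a Col22a1 UMI. Col11a1 stood at 1471 against 1012 CPM and 1198 against 813 CPM, and Col13a1 at 248 against 135 CPM and 140 against 89.2 CPM. The marker Scx was higher too, at 12288 against 5250 CPM and 1129 against 659 CPM. Col3a1 was lower, at 2442 against 3164 CPM and 1617 against 1788 CPM. Col1a1 and Col24a1 went opposite ways in the 2 libraries. The cells with a Col22a1 UMI were also deeper, with medians of 4706 against 4577 UMIs and 7213 against 5996 UMIs, and the part of depth in these differences was not tested.

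The remaining tenocyte genes fall into 3 ranges. Col13a1, a transmembrane collagen of cell junctions, was higher by 423-fold and 139-fold, at 161 and 110 CPM in tenocyte-like cells. Col26a1 stood at 26.5 and 107 CPM, and Col8a2 at 133 and 65.6 CPM, the last being 45.1-fold and 14.2-fold above fibroblast-like cells. Col12a1, a fibril-associated collagen of dense connective tissue, stood at 953 and 809 CPM and was 21.0-fold and 36.8-fold higher. Col16a1 was higher by 3.75-fold and 4.10-fold and Col18a1 by 2.23-fold and 3.96-fold, so these 2 were shared with fibroblast-like cells to a much larger degree.

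Col24a1, a fibrillar collagen that did not pass the filter in both libraries, stood at 42.0 and 20.7 CPM in tenocyte-like cells and at 2.39 and 0.118 CPM in fibroblast-like cells. Among collagens that were not members, Col2a1, the main cartilage collagen, stood at 50.3 and 44.6 CPM in tenocyte-like cells and at 0.127 and 0.219 CPM in fibroblast-like cells. The osteochondral marker list summed to 701 and 652 CPM in tenocyte-like cells and to 5.12 and 7.77 CPM in fibroblast-like cells. Nearly all of it was Chad, at 684 and 645 CPM, a gene tendon is known to express as well. Acan, which marks cartilage, was at 6.40 and 1.68 CPM, Sp7 had 1 and 0 UMIs and Ibsp was at 0 in tenocyte-like cells of both libraries. Cells with UMIs of at least 3 osteochondral markers and a minimum summed level had been set aside, 6 in each library. Low levels of these markers in tenocyte-like cells were therefore partly fixed by the gate. The part of osteochondral cells in these levels was not tested.

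The major fibrillar chains separated in a different way. Col1a1 stood at 18638 and 18306 CPM in tenocyte-like cells, 1.57-fold and 3.51-fold above the 11874 and 5219 CPM of fibroblast-like cells. The median tenocyte-like cell held 16813 and 14813 CPM of Col1a1, and the median fibroblast-like cell 5177 and 3094.5 CPM. Col3a1 stood at 2999 and 1718 CPM, 5.77-fold and 4.48-fold below the 17314 and 7695 CPM of fibroblast-like cells. The UMI ratio of Col3a1 to Col1a1 was accordingly 0.161 and 0.0939 in tenocyte-like cells and 1.46 and 1.47 in fibroblast-like cells, the fibroblast ratio being almost the same in both libraries although each gene differed more than 2-fold between them. The Col3a1 level of tenocyte-like cells of the adult pulse library was 1.20-fold (1.05 to 1.37) that of Schwann-like cells. It lay below the 2431 CPM of endothelial-like cells, so between the levels of these comparison classes. Neither level is read as a background, since both classes held much of the fibroblast marker list. The UMI ratio of Col1a1 to Col1a2, chains that combine in fixed proportion in type I collagen, was 1.37 and 1.35 in tenocyte-like cells and 1.06 and 0.893 in fibroblast-like cells.

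The other lower genes came from several kinds of collagen. Col15a1, a basement membrane proteoglycan, was 10.5-fold and 19.2-fold lower in tenocyte-like cells, at 30.2 and 19.6 CPM against 317 and 376 CPM. Col14a1, a fibril-associated collagen, was 6.89-fold and 7.68-fold lower. Col6a6 was lower by 26.5-fold and 51.1-fold and Col4a5 by 21.5-fold and 40.4-fold, both from at most 5 UMIs in tenocyte-like cells. Col5a3, a chain of type V collagen, was 3.87-fold and 5.90-fold lower, while the type V chain gene Col5a2 was 1.27-fold and 1.44-fold lower and did not reach 2-fold. Col5a1, also of type V, was lower too but not past 2-fold in both libraries. In the E10-P56 library it stood at 764 CPM in fibroblast-like cells and at most at 446 CPM in any other ranked class. In the adult pulse library it stood at 261 against 584 CPM. Col4a3 had 0 and 9 UMIs in tenocyte-like cells. With the 0 set to the floor of 3 counts, it was 2.75-fold lower in the E10-P56 library. In the adult pulse library it was 7.16-fold lower. Col4a4 was 4.54-fold and 3.77-fold lower.

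**Figure D3:**
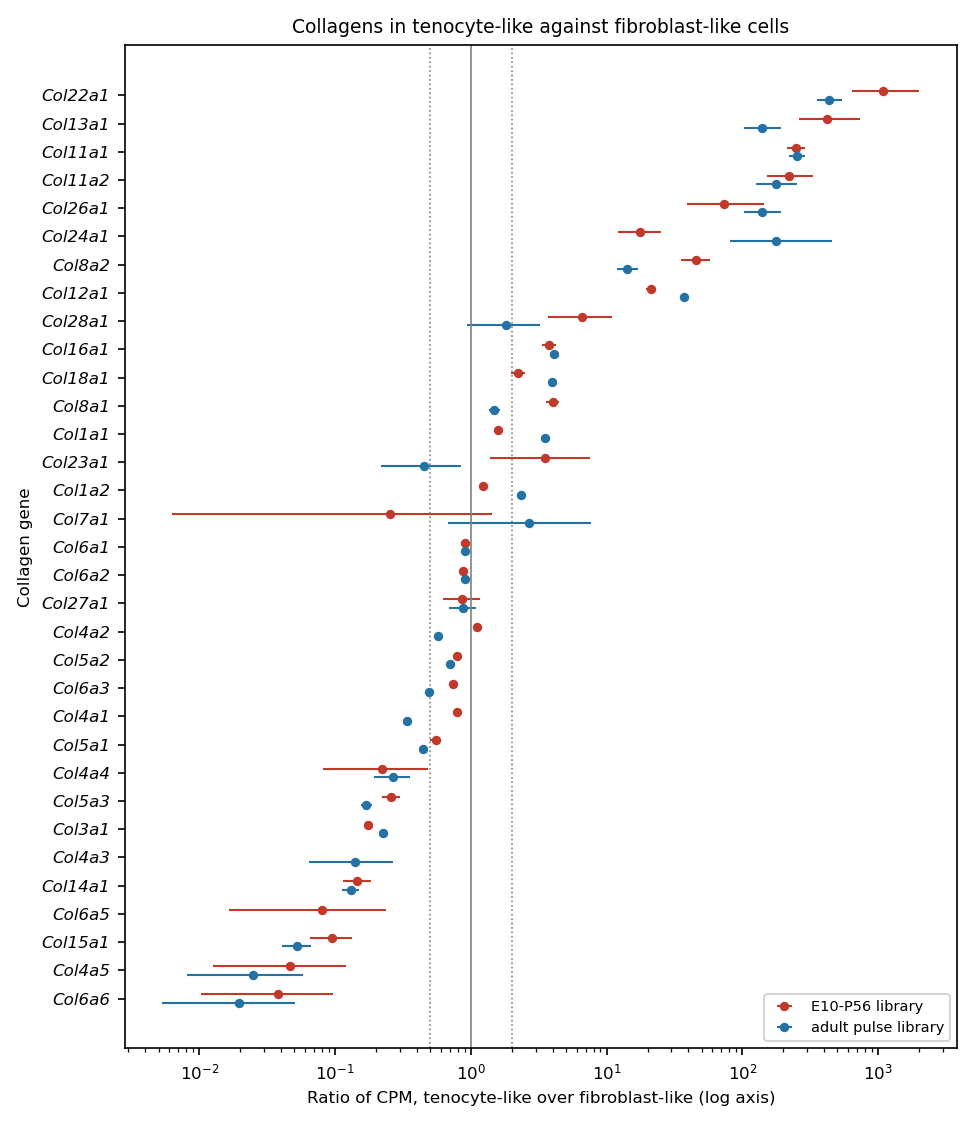
Points give the ratio of CPM in tenocyte-like over fibroblast-like cells (log x axis) for each member (y axis) with at least 10 UMIs in the 2 classes and none of them at 0, red for the E10-P56 library and blue for the adult pulse library, and bars give the 95% counting interval. Dotted lines mark 2-fold. Col22a1, Col13a1, Col11a1 and Col11a2 lie above 100-fold in both libraries, and Col15a1, Col4a5 and Col6a6 lie at least 10-fold below 1.

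Collagens in pericyte-like cells were mostly lower than in fibroblast-like cells. Of 26 members tested, 1 was higher (13.3% of all genes tested were) and 13 were lower (10.3% of all genes tested were): Col12a1, Col14a1, Col16a1, Col1a1, Col1a2, Col3a1, Col4a5, Col5a1, Col5a2, Col6a1, Col6a2, Col6a6 and Col8a1. The median log2 ratio of the members was -1.15 and -1.40 while that of all genes tested was 0.35 in both libraries. The 1 higher member, Col13a1, rests on 4 and 2 UMIs in pericyte-like cells.

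The main type IV chains went the other way. Col4a1 stood at 2966 and 1785 CPM in pericyte-like cells and Col4a2 at 1788 and 1292 CPM, 2.72-fold and 1.27-fold, and 3.39-fold and 1.97-fold, above fibroblast-like cells. They thus passed 2-fold in the E10-P56 library and not in the adult pulse library. In the adult pulse library endothelial-like cells held as much, with Col4a1 at 1579 CPM and Col4a2 at 1130 CPM, while in the E10-P56 library they held 2007 and 1067 CPM. Among the other type IV chains, Col4a5 was lower by 7.45-fold and 4.42-fold, Col4a3 had 6 and 15 UMIs and Col4a4 had 22 and 42 UMIs.

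The type IV genes lie head to head in 3 pairs, so the 2 genes of a pair have neighbouring starts. The GENCODE annotation of GRCm38 places the starts of Col4a1 and Col4a2 on chromosome 8 so that the 2 transcripts overlap by 22 bases, shown on the plus strand: chr8:11312805-11312826, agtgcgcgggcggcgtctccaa. The starts of Col4a4 and Col4a3 on chromosome 1 are separated by 71 bases with a GC content of 69.0%, also shown on the plus strand: chr1:82586850-82586920, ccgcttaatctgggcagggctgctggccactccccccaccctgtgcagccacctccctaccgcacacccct. Those of Col4a6 and Col4a5 on the X chromosome are 1308 bases apart. The stretches are shown because the values below compare the 2 chains of a pair.

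The UMI ratio of Col4a1 to Col4a2 was 2.06 and 2.14 in fibroblast-like cells, 1.66 and 1.38 in pericyte-like cells, 1.45 and 1.25 in tenocyte-like cells and 1.86 and 1.52 in intermediate mural cells. The ratio of Col4a4 to Col4a3 was 3.30 and 2.57 in fibroblast-like cells and 2.58 and 5 in perineurial-like cells, the last from 24 and 3 UMIs of Col4a3. Col4a5 exceeded Col4a6 by 29.2-fold and 23.9-fold in fibroblast-like cells and by 5.74-fold and 1.67-fold in smooth muscle-like cells. The ratio of Col4a1 to Col4a2 stayed within 1.22-fold to 2.15-fold over the 6 classes and Schwann-like cells. That of Col4a5 to Col4a6 ranged more widely, but Col4a6 had at most 3 UMIs outside fibroblast-like and E10-P56 smooth muscle-like cells. In Schwann-like cells the ratio of Col4a4 to Col4a3 was 5.5 and 0.333, from 6 Col4a3 UMIs in each library. A link between these ratios and the distance of the starts was not tested.

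Type I and III levels of pericyte-like cells were compared with those of Schwann-like cells. Col1a1 stood at 1112 and 432 CPM in pericyte-like cells, beside the 1199 and 1408 CPM of Schwann-like cells, and was thus at or below that level in both libraries. Col3a1 stood at 1618 and 953 CPM in pericyte-like cells, beside 1079 and 1433 CPM in Schwann-like cells. Against fibroblast-like cells, pericyte-like cells were lower by 10.7-fold and 12.1-fold for Col1a1 and by 10.7-fold and 8.08-fold for Col3a1. The part of free RNA in the pericyte levels was not tested. Schwann-like cells cannot measure it, since they held more of the fibroblast marker list than pericyte-like cells. Intermediate mural cells held more, with Col1a1 at 4353 and 788 CPM and Col3a1 at 4292 and 1846 CPM, so that in the E10-P56 library both genes stood well above the Schwann-like level. In both libraries the pericyte-like cells with a Col1a1 UMI after thinning were 68.2% and 36.7% of the class, against 77.1% and 76.2% of the Schwann-like cells.

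Col25a1, a transmembrane collagen, did not pass the filter in both libraries and had few UMIs in any class. It had 8 and 17 UMIs in pericyte-like cells, 5.27 and 13.6 CPM, and 6 and 8 UMIs in tenocyte-like cells, against 3 and 0 UMIs in fibroblast-like cells. Intermediate mural cells held 0 and 5 UMIs, the latter 8.16 CPM. The pericyte level is 83.1-fold (19.9 to 486) above fibroblast-like cells in the E10-P56 library. In the adult pulse library it is 270-fold above with the 0 of fibroblast-like cells set to the floor of 3 counts, which is not a lower limit. In thinned cells 0.733% and 2.96% of pericyte-like cells held a UMI.

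The intermediate mural cells carried more collagen than pericyte-like and smooth muscle-like cells, at 2.32% of UMIs against 1.13% and 0.871% in the E10-P56 library. In the adult pulse library they held 0.770% against 0.698% and 0.460%. The median intermediate mural and pericyte-like cells of that library held nearly the same, 0.597% and 0.594%. Col18a1, a basement membrane proteoglycan, was the 1 member higher than in fibroblast-like cells in both libraries, at 1064 and 180 CPM against 113 and 66.3 CPM, 9.45-fold and 2.71-fold higher; 8.64% of all genes tested were higher in both libraries. It was also 4.999-fold and 4.77-fold above pericyte-like cells. 10 members were lower, where 7.42% of all genes tested were lower: Col14a1, Col15a1, Col1a1, Col1a2, Col3a1, Col4a3, Col4a4, Col4a5, Col6a6 and Col8a1. Col5a3 and Col6a3 were higher in the E10-P56 library and lower in the adult pulse library, by 1.63-fold and 2.11-fold for Col5a3 and by 1.86-fold and 2.09-fold for Col6a3. In the adult pulse library the Col18a1 ratio was 1.59 with cells thinned before summing.

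Smooth muscle-like cells had 13 of 23 members lower than fibroblast-like cells and 2 higher, where 7.82% and 9.74% of all genes tested were lower and higher. The lower ones were Col14a1, Col15a1, Col1a1, Col1a2, Col3a1, Col4a4, Col5a1, Col5a2, Col5a3, Col6a1, Col6a2, Col6a3 and Col6a6. The higher ones were Col13a1, with 10 and 1 UMIs, and Col18a1, at 473 and 136 CPM, 4.21-fold and 2.05-fold above fibroblast-like cells. In the adult pulse library the Col18a1 value rests on 19 UMIs in 19 cells, and with cells thinned before summing it turned to 0.50 of the fibroblast level. Col4a6, which did not pass the filter, was highest in smooth muscle-like cells in both libraries, at 16.7 and 21.5 CPM from 27 and 3 UMIs, against 2.69 and 2.37 CPM in fibroblast-like cells. Col7a1 had 47 UMIs in smooth muscle-like cells of the E10-P56 library, 29.1 CPM, 8.00-fold above fibroblast-like cells, and 0 in the adult pulse library.

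Perineurial-like cells, the sheath cells that surround nerve fascicles, had 13 of 24 members lower than fibroblast-like cells and 3 higher, where 5.63% and 9.41% of all genes tested were lower and higher. The lower ones were Col14a1, Col15a1, Col16a1, Col1a1, Col1a2, Col3a1, Col4a5, Col5a1, Col5a2, Col6a1, Col6a2, Col6a3 and Col6a6. Col1a1 was 6.30-fold and 3.18-fold lower, at 1884 and 1641 CPM, which is 1.57-fold and 1.17-fold the Schwann-like level. Col18a1 was higher, at 228 and 152 CPM. Col23a1, a transmembrane collagen, was higher by 22.0-fold and 3.18-fold, at 40.1 and 19.6 CPM, but the adult value rests on 4 UMIs, and Col8a2 rests on 7 and 2 UMIs. The fibroblast marker list summed to 23694 and 36551 CPM in this class, led by Dcn and Gsn, against 39692 and 57497 CPM in fibroblast-like cells, and its part in the collagen levels was not tested. Col4a3 and Col4a4, chains that are best known from the basement membrane of the kidney glomerulus, were at 32.0 and 14.7 CPM and at 82.8 and 73.5 CPM. In the E10-P56 library these were 4.25-fold and 3.33-fold above fibroblast-like cells, and in the adult pulse library Col4a3 was 1.23-fold below them (0.42 to 5.97) from 3 UMIs, and Col4a4 1.58-fold above.

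Some members were highest, or near their highest level, in Schwann-like cells, which are not mesenchymal. Col28a1, a collagen of peripheral nerve, stood at 86.5 and 42.9 CPM in Schwann-like cells from 93 and 7 UMIs, against 2.37 and 2 CPM in fibroblast-like cells. Col9a1, a cartilage collagen, had 23 UMIs in Schwann-like cells of the E10-P56 library and 1 in the adult pulse library, and 0 in tenocyte-like cells of both. Col23a1 stood at 38.1 and 98.0 CPM in Schwann-like cells, beside 40.1 and 19.6 CPM in perineurial-like cells. The perineurial marker list summed to 2355 and 2541 CPM in Schwann-like cells, against 7555 and 5496 CPM in perineurial-like cells. Its part in the Schwann-like levels was not tested. Col24a1 stood at 57.6 and 24.5 CPM in Schwann-like cells, the latter from 4 UMIs, and at 42.0 and 20.7 CPM in tenocyte-like cells. All 4 genes stood higher in Schwann-like than in fibroblast-like cells in both libraries.

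Fibroblast-like cells were scored by marker lists that held no collagen. Pi16-type cells, named for a gene of adventitial fibroblasts, numbered 1036 and 1627, and Smoc2-type cells 1433 and 3349. Another 1851 and 2199 fibroblast-like cells scored between the types and were left out of this comparison. The lists follow a split that the study itself drew on these cells, so agreement between them and the collagens is no independent evidence. Pi16-type cells held less collagen than Smoc2-type cells, 3.28% and 1.63% of UMIs against 4.84% and 3.27%. Cells between the types held 5.71% and 2.74%, in the E10-P56 library more than either type. Of 22 members tested, 13 were lower in Pi16-type cells in both libraries, where 5.18% of all genes tested were lower, and 1 was higher, where 3.85% were. The median log2 ratio of the members was -1.53 and -1.35, and of all genes tested -0.03 and -0.02.

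Col15a1 differed most. It stood at 10.8 and 8.34 CPM in Pi16-type cells and at 634 and 709 CPM in Smoc2-type cells, 58.9-fold (49.0 to 71.3) and 85.05-fold (70.8 to 103) lower. Col8a1 was 10.3-fold and 17.3-fold lower. Col4a1 was 9.13-fold and 8.10-fold lower, at 227 and 277 CPM against 2074 and 2240.5 CPM, and Col4a2 10.9-fold and 8.94-fold lower. In the adult pulse library Col4a1 was thus higher in Smoc2-type than in pericyte-like cells, which held 1785 CPM, while Col4a2 was lower, at 1062 against 1292 CPM. Col18a1 was 5.11-fold and 5.13-fold lower, nearly the same in both libraries.

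The type VI chains followed in the same direction and to a lesser degree. Col6a1, Col6a2 and Col6a3 were 2.52-fold, 3.09-fold and 2.88-fold lower in the E10-P56 library and 2.42-fold, 3.18-fold and 3.75-fold lower in the adult pulse library. Col5a3 was 4.49-fold and 2.69-fold lower, Col27a1 8.47-fold and 4.17-fold, and Col4a3 17.2-fold and 5.21-fold lower. The main fibrillar chains differed by less. Col1a1 was 1.30-fold and 1.76-fold lower and Col3a1 1.29-fold and 1.76-fold lower, neither reaching 2-fold. Col14a1 was the 1 member higher in Pi16-type cells, at 743 and 751 CPM against 327 and 226 CPM, 2.27-fold and 3.32-fold.

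**Figure D4:**
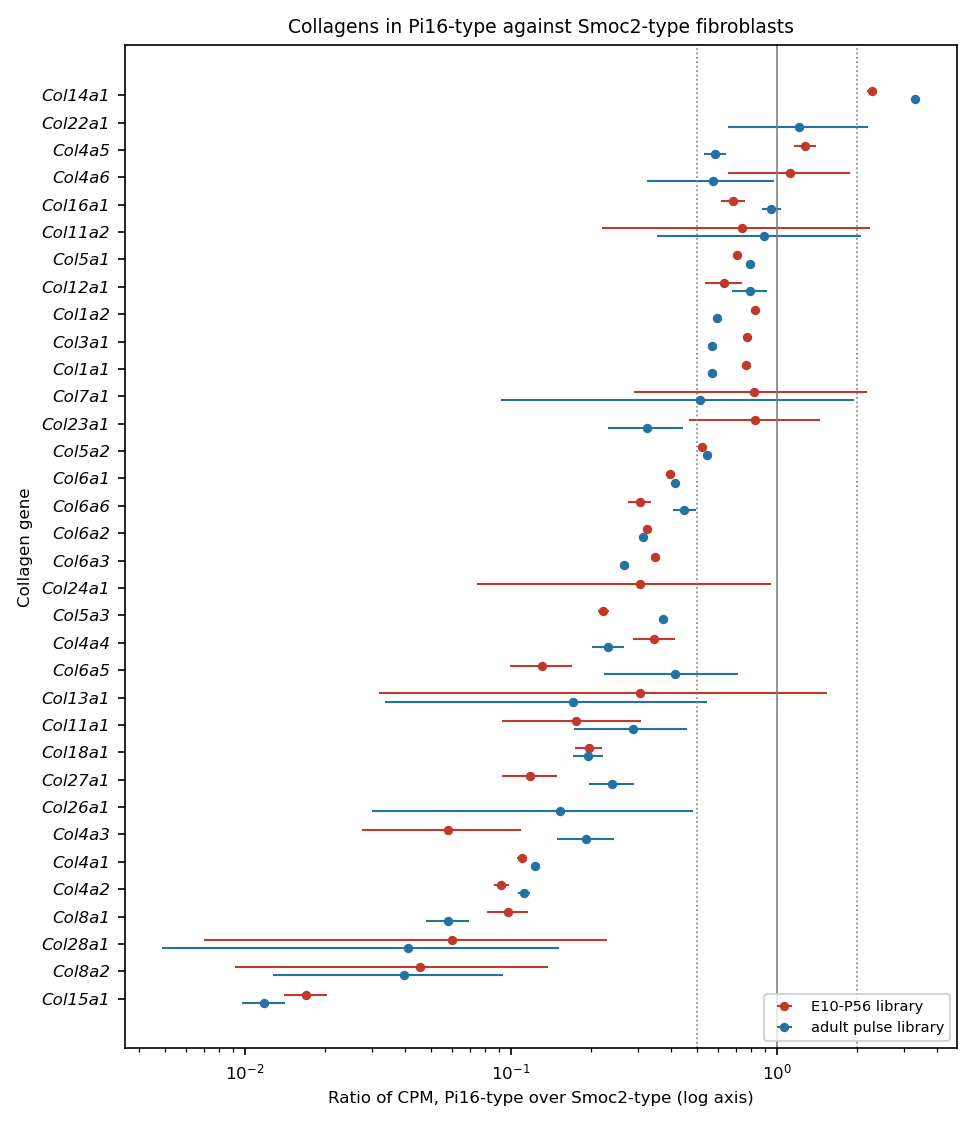
Points give the ratio of CPM in Pi16-type over Smoc2-type fibroblasts (log x axis) for each member (y axis) with at least 10 UMIs and neither type at 0, red for the E10-P56 library and blue for the adult pulse library, and bars give the 95% counting interval. Col14a1 lies above 2-fold in both libraries, and Col15a1, Col8a1, Col4a1 and Col4a2 lie far to the left.

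Between the libraries, fibroblast-like cells of the E10-P56 library carried more of the main fibrillar chains. The filter here was a mean of 5 CPM over both libraries within the class. Members that did not pass the filter between classes could therefore be tested. 4 of 23 members were at least 2-fold higher (Col12a1, Col1a1, Col3a1 and Col6a5), where 3.1% of all genes tested were, and Col4a3 was lower, where 2.87% were. Col1a1 was 2.28-fold higher, Col3a1 2.25-fold and Col12a1 2.06-fold, while Col1a2, at 11155 against 5844 CPM, was 1.91-fold higher and below the threshold. With cells thinned before summing, or with each cell weighted equally, these chains were under 2-fold and 2 members were past it in place of 5. Col6a5 was the largest, at 34.1 against 1.98 CPM, 17.2-fold (14.3 to 20.9). Col4a3 was 2.39-fold lower, at 7.55 against 18.1 CPM. The median log2 ratio of the members was 0.31 and of all genes tested 0.07.

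In tenocyte-like cells 4 of 27 members were higher in the E10-P56 library (Col24a1, Col28a1, Col8a1 and Col8a2), where 11.4% of all genes tested were, and 2 were lower (Col26a1 and Col4a4), where 3.54% were. Col1a1 had a ratio of 1.02 (1.002 to 1.03), and Col3a1 was 1.75-fold higher in the E10-P56 library. Col26a1, at 26.5 against 107 CPM, was 4.05-fold lower (2.77 to 6.13). Col22a1 was 1.98-fold lower and did not reach 2-fold. Col8a1 had a ratio of 0.885 with Leiden clusters made without collagens in place of the gates, and Col4a4 one of 1.95 with thinned cells, so these 2 directions depend on the setting. In pericyte-like cells 4 of 22 were higher (Col12a1, Col14a1, Col18a1 and Col1a1), where 4.86% of all genes tested were, and 3 were lower (Col25a1, Col4a3 and Col4a4), where 3.39% were. Col18a1 was the largest of them, 5.65-fold higher (4.15 to 7.85), from 323 and 47 UMIs, and the counts of Col25a1 were 8 and 17. With the Leiden clusters Col12a1 and Col14a1 turned to ratios of 0.888 and 0.724, and Col18a1 was 1.92-fold higher.

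In intermediate mural cells several ratios between the libraries were larger. Col1a1 was 5.52-fold, Col5a1 3.79-fold, Col12a1 7.95-fold and Col18a1 5.92-fold higher in the E10-P56 library, with Col12a1 from 367 and 12 UMIs. Labelling time, TAM dosing, age at collection, library and software version cannot be told apart in any of these differences.

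**Figure D5:**
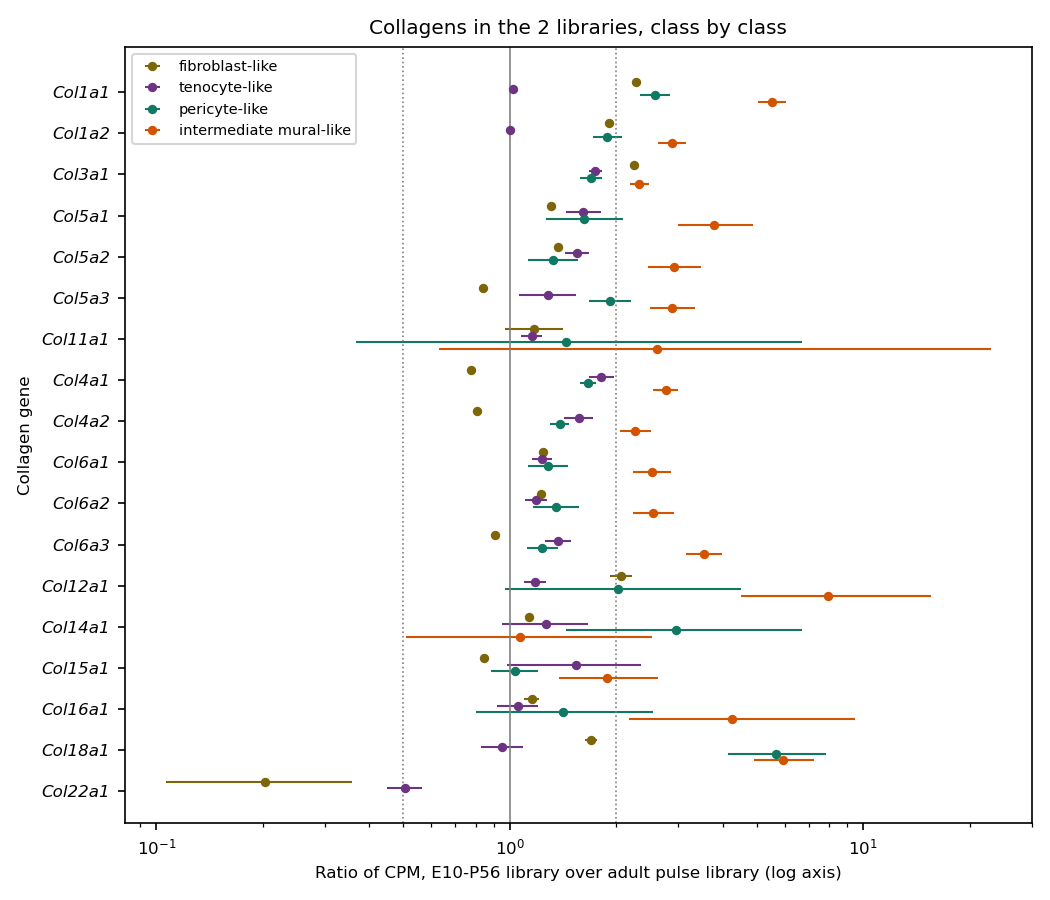
Points give the ratio of CPM in the E10-P56 library over the adult pulse library (log x axis) for 18 members (y axis) in fibroblast-like, tenocyte-like, pericyte-like and intermediate mural cells, and bars give the 95% counting interval. Col1a1 lies at 1.02 in tenocyte-like cells and at 2.28 to 5.52 in the other classes.

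Genes that build, process and bind collagen were counted in the same way. Of 21 enzymes and chaperones of collagen synthesis, 13 processing enzymes and 7 receptors, 19, 10 and 6 passed the filter in the comparison of tenocyte-like with fibroblast-like cells, and 5 in all were higher (P3h2, Tmem38b, Adamts3, Itga10 and Itga1) and 7 lower in both libraries, beside 5.59% and 6.89% of all genes tested. P3h2, a prolyl hydroxylase that modifies collagen, stood at 66.7 and 33.1 CPM in tenocyte-like cells and at 1.14 and 0.807 CPM in fibroblast-like cells. Adamts3, a protease that cuts the amino-terminal propeptide of fibrillar procollagens, was 23.1-fold and 22.1-fold higher. Of the receptors, Itga10 was 86.5-fold and 77.7-fold higher, at 82.3 and 57.5 CPM, and Itga1 6.73-fold and 3.10-fold. Colgalt2, P4ha2, Adamts14, Adamts2, Bmp1, Loxl1 and Pcolce2 were lower, Pcolce2, an enhancer of procollagen cleavage, by 14.6-fold and 8.78-fold.

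In pericyte-like cells 7 of 9 processing genes were lower (Adamts14, Adamts2, Bmp1, Lox, Loxl1, Pcolce and Pcolce2), where 10.3% of all genes tested were lower, and 0 were higher. Lox, which crosslinks fibrils, was 24.1-fold and 38.4-fold lower. Of 5 receptor genes, Ddr1, Itga1 and Itgb1 were higher and Ddr2 and Itga11 lower, with Itga1 at 384 and 408 CPM against 5.43 and 9.04 CPM in fibroblast-like cells. Itga1 forms, with Itgb1, a receptor that binds type IV collagen well, and Itga11, one that prefers fibrillar collagens. P3h2 and Tmem38b were higher in tenocyte-like, pericyte-like, smooth muscle-like and intermediate mural cells, and 4 synthesis genes were lower in pericyte-like cells (Fkbp10, P3h4, P4ha2 and Plod2). Smooth muscle-like cells had 9 of 19 synthesis genes lower, where 7.82% of all genes tested were lower, more than any other class, including Serpinh1, the collagen chaperone.

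Between the fibroblast types few genes of these lists passed 2-fold in both libraries. In Pi16-type cells 1 of 9 processing genes was higher and 1 lower, and 1 of 5 receptors was higher and 1 lower. Of 18 synthesis genes, 0 were higher and 3 lower. Of all genes tested, 3.85% were higher and 5.18% lower. Pcolce2 stood at 799 and 1105 CPM in Pi16-type cells and at 188 CPM in Smoc2-type cells of both libraries. Ddr2, a receptor for fibrillar collagen, was higher in Pi16-type cells at 436 and 440 CPM against 212 and 175 CPM. Lox stood lower in Pi16-type cells, at 78.3 and 12.1 CPM against 254 and 92.5 CPM, as did Itga1, Colgalt2, Plod1 and Plod2.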

How the data were processed

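Per the file headers and the study's methods, the authors sorted tdTomato+ cells, prepared 10x Chromium 3′ libraries and made the deposited UMI count matrices with Cell Ranger (5.0.0 for E10-P56, 3.0.2 for the adult pulse) on mouse genome mm10. Each matrix holds whole-number counts of 28001 genes. Nothing in them was normalized.

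From these counts, barcodes below 1500 UMIs, or above 10% of UMIs from mitochondrial genes, were dropped, which removed 1310 and 839 barcodes in the E10-P56 library and 465 and 163 in the adult pulse library. Cells were gated on marker lists free of collagens. A tenocyte, smooth muscle or perineurial cell needed UMIs of at least 4 of its markers. The minimum was 3 for pericyte and intermediate mural cells, 3 for Schwann-like, endothelial-like and set-aside cells, and 6 for fibroblasts. Except for fibroblasts, a minimum summed marker level was also required. Cells past several of the tenocyte, mural and perineurial gates, or past any of them with at least 8 fibroblast markers, were set aside as mixed. So were cells past the endothelial gate and a tenocyte, mural, perineurial or Schwann gate, giving 156 and 128 mixed cells. Other cells past the Schwann, cycling, osteochondral or myogenic gate kept that class even where they also passed a tenocyte, mural or perineurial gate. Fibroblast markers did not bar a cell from the Schwann-like or endothelial-like class. Cycling (106 and 23), osteochondral (6 and 6) and myogenic (4 and 3) cells were also set aside. A further 122 and 89 cells were left without a class. Collagens took 5.48% and 3.08% of UMIs in cycling cells and 5.19% and 8.03% in osteochondral cells. No doublets were removed in the values given, and leaving out the 5% of cells with the highest Scrublet score was an alternative. UMIs were summed per class and library and divided by the UMIs of the class. Levels and collagen shares of class UMIs carry exact Poisson intervals, and ratios exact conditional binomial intervals. Make-up percentages and shares of cells with a UMI carry exact Clopper-Pearson intervals. All intervals are at 95%. These cover counting error only, since cells of 1 library are not replicates. A count of 0 was set to a floor of 3 counts in ratios. Between classes, a gene was tested against the fold threshold where its mean reached 5 CPM in both libraries. That mean was over the fibroblast, tenocyte, pericyte, smooth muscle and perineurial classes. Between fibroblast types the mean was over both types, again in each library. Between the libraries it was the mean of both libraries within the class.

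All 36 members were accounted for. Values in full went to members past 2-fold in the same direction in both libraries, to the main fibrillar, basement membrane and beaded filament chains and to members near 0, and list genes were named where they passed 2-fold in both libraries. The members and lists were chosen with earlier results of these data known. Clusters for the alternative came from Leiden clustering with all collagens left out. Promoter windows were from RefSeq (GRCm38.p6), with a window for 29 of the 36 members, and gene positions from GENCODE on GRCm38. The scripts were checked on simulated counts and used Python 3.11.15, numpy 2.4.6, scipy 1.17.1, pandas 2.3.3, scanpy 1.11.5, scikit-learn 1.9.0, igraph 0.11.9 and matplotlib 3.10.9.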

Additional observations from a re-analysis of the deposited data

Results flagged for a closer look

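4 collagens differed from fibroblast-like cells by at least 1.5-fold in opposite directions in the 2 libraries, with counting intervals that did not include 1. The difference between the libraries was not tested, as each group has 1 library. Col5a3 in intermediate mural cells stood at 1.63 times the fibroblast level in the E10-P56 library and at 0.475 times in the adult pulse library, from 2227 and 201 UMIs. Col6a3 in the same cells stood at 1.86 and 0.479 times, from 4251 and 313 UMIs. Col18a1 in pericyte-like cells stood at 1.89 and 0.567 times, from 323 and 47 UMIs. Col23a1 in tenocyte-like cells stood at 3.52 and 0.454 times, from 7 and 10 UMIs.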

How the results depend on the processing

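There were 12 planned and 3 added alternatives, the latter (mural boundaries 0.25 wider or narrower, and without barcodes found in both libraries) chosen after seeing the data. The 3-fold threshold and the missing filter leave a ratio as it is and were not applied to ratios. Of 192 ratios past 2-fold, 157 stayed past it in the same direction under every other alternative that gave a value. Alternatives that gave no value for a ratio were passed over. Of the 192 ratios, 5 turned to the other direction. With cells thinned before summing, Col18a1 in adult pulse smooth muscle-like against fibroblast-like cells turned to 0.50, and Col4a4 between the libraries in tenocyte-like cells to 1.95. With Leiden clusters, ratios between the libraries turned to 0.885 for Col8a1 in tenocyte-like cells and to 0.888 for Col12a1 and 0.724 for Col14a1 in pericyte-like cells. The count for tenocyte-like against fibroblast-like cells, 17, ranged from 15 to 20, and that for pericyte-like cells, 14, from 11 to 16. At a 3-fold threshold the counts fell from 15 to 9 in smooth muscle-like, 16 to 10 in perineurial-like and 11 to 7 in intermediate mural cells, from 14 to 8 between fibroblast types, and between the libraries from 5 to 1 in fibroblast-like, 6 to 2 in tenocyte-like and 7 to 2 in pericyte-like cells. Between the libraries, fibroblast-like cells had 2 members past 2-fold with thinned cells, 2 with the mean over cells and 11 with no filter on low values. Tenocyte-like cells had 3 with 1 more marker, 2 with the mean over cells and 10 with no filter, and pericyte-like cells had 2 with Leiden clusters. Apart from the stricter threshold and the missing filter, which act by construction, the cause was not tested. Adult pulse smooth muscle-like and perineurial-like cells formed no Leiden cluster and gave no value there, and Leiden clusters were not run for the counts of classes and of highest classes. No paired analysis was possible because each group has 1 library. Depth limits every member with few UMIs, among them Col9a1, Col13a1 outside tenocyte-like cells, Col25a1 and Col4a6.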

Other observations

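8 collagen genes of the tables were not members. Besides Col2a1, Col9a2 stood at 4.57 and 19.3 CPM in tenocyte-like cells from 5 and 69 UMIs, against 0.888 and 2.22 CPM in fibroblast-like cells and 6.51 and 0 CPM in Schwann-like cells, the former from 7 UMIs. Col9a3, which encodes a partner chain of type IX, stood instead in Schwann-like cells, at 22.3 and 12.2 CPM from 24 and 2 UMIs, beside the 23 and 1 UMIs of Col9a1 in the same cells. Col17a1, a transmembrane collagen, stood at 1.29 and 1.95 CPM in fibroblast-like cells and was at 0 in tenocyte-like and Schwann-like cells of both libraries. Col10a1 and Col19a1 had at most 2 UMIs in fibroblast-like cells and 0 in tenocyte-like cells.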
